A study of Mus musculus with 12 samples.

Results

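The core of the Hippo pathway was examined in sorted cells of the mouse embryo at stage E7.25 through 10 genes. They were the DNA-binding factors Tead1, Tead2 and Tead4, the co-activators Yap1 and Wwtr1, the kinases Lats1 and Lats2, and the angiomotins Amot, Amotl1 and Amotl2. The genes were chosen by name, with earlier results of these data known. Each was found by its Ensembl mouse gene identifier among the 38924 genes of the count files. All 10 passed the expression filter that left 14170 genes for testing. RNA was sequenced in 12 libraries, 3 from each of 4 sorted types, and every type came from the same mouse line, Foxa2Cre:Rosa26-YFP. In this line a Cre recombinase made where Foxa2 is expressed turns on a yellow fluorescent protein (YFP) reporter for good, so YFP marks a history of Foxa2 expression rather than its present level. The types were YFP+ cardiac mesoderm, labelled ventricular, YFP- cardiac mesoderm, labelled non-ventricular, endoderm sorted as EPCAM+, and hematopoietic mesoderm sorted as KDR+. Nothing in the labels says whether replicates came from separate embryos or pools, so the p-values measure only the spread between these libraries, which may be technical.

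In the Hippo pathway, a kinase cascade that ends in LATS1 and LATS2 phosphorylates the co-activators YAP (from Yap1) and TAZ (from Wwtr1), which holds them in the cytoplasm and promotes their breakdown. Co-activators that escape this step enter the nucleus and act through TEAD factors, since they cannot bind DNA themselves. Angiomotins are junction and actin-associated scaffolds that bind YAP and can promote LATS activity. The pathway is best known for control of organ size, for the split between trophectoderm and inner cell mass, and for growth of the heart muscle wall.

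TEAD factors bind the core GGAATG, or CATTCC on the other strand. Promoters of this family are shown because several pathway genes are known to be targets of TEAD themselves. RefSeq promoter sequence on GRCm38.p6 was held for 8 of the 10 genes, all but Tead1 and Tead4. The 250 bases before each annotated start were searched on both strands. The core was found in 3 of these 8 genes (37.5%), in 6 of 15 genes of a list of known YAP/TEAD targets (40%), and in 3880 of all 27025 genes (14.4%). Amotl2 counts both among the 3 and among the 6. Windows of 60 bases around the core are given 5′ to 3′ on the strand of the gene, with the core in capitals, for the 3 member genes and for Ccn1, a widely used target gene.
Yap1: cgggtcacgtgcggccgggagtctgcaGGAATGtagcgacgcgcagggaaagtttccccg
Wwtr1: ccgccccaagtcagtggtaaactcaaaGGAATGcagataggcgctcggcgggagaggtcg
Amotl2: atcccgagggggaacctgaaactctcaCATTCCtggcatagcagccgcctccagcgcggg
Ccn1: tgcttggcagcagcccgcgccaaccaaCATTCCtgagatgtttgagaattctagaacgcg
The Yap1 window lies at chr9:8004705-8004764 on the minus strand, with the core 141 bases before the start. The Wwtr1 window is chr3:57576014-57576073 (minus strand, core 136 and 170 bases before its 2 RefSeq starts). The Amotl2 window is chr9:102717712-102717771 (plus strand, core 65 bases before a RefSeq start at 102717804). That start lies inside the Amotl2 gene as the annotation used for gene positions gives it, which begins at 102716672. The Ccn1 window is chr3:145650056-145650115 (minus strand, core 103 bases before the start). A match of 6 letters is a description of the sequence and does not show binding, which was not measured here.

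The libraries held 4472800 to 7888631 counts in genes, and 3 counts equalled 0.380 to 0.671 CPM, the counts scaled to a common library total with trimmed-mean (TMM) factors. Values after ± are the SD of a type's 3 libraries for levels and shares, and the SE for log2 differences. Marker lists were compared with the labels. Summed endoderm markers reached 738 to 1048 CPM in the endoderm libraries and 20.2 to 121 CPM elsewhere, and summed visceral endoderm markers 1467 to 4419 CPM against 4.04 to 63.0. The endoderm libraries also held the most epiblast and neuroectoderm marker RNA, 726 to 812 CPM against 4.83 to 417. In endoderm this sum was mostly Otx2, Fgf5 and Utf1, at means of 357, 275 and 113 CPM, with Pou3f1 at 18.5 and Sox2 at 10.9 CPM. Summed cardiac markers were 1106 to 1229 CPM in YFP+ and 848 to 1079 CPM in YFP- cardiac mesoderm, against 109 to 176 in endoderm. Summed hematopoietic markers were highest in the hematopoietic mesoderm (1315 to 1419 CPM) and lowest in the endoderm (17.9 to 26.5). Kdr, Tal1, Cdh5 and Gata1 had their highest mean in hematopoietic mesoderm. Etv2 averaged more in YFP- cardiac mesoderm (49.3 against 34.3 CPM). Pecam1 averaged more in YFP+ cardiac mesoderm (21.0 against 16.7 CPM), through replicate 2 at 58.7 CPM. The sort markers Kdr and Epcam stand in the hematopoietic and endoderm lists. They averaged 774 CPM in hematopoietic mesoderm and 220 CPM in endoderm, so part of this match follows from the sort itself. Hematopoietic mesoderm replicate 3 stood apart from its type, with 717 CPM of cardiac markers, and replicate 3 of each mesoderm type carried the most endoderm marker RNA of its type. In bulk RNA, fewer cells of a type and less RNA per cell cannot be told apart.

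Tead1 was the only gene of the 10 to pass the test in any pair of types, and it did so in the 3 pairs that include endoderm. It encodes a TEAD factor required for normal development of the embryonic heart. The gene lies at chr7:112679318-112906807 on the plus strand (GRCm38). In YFP+ cardiac mesoderm the Tead1 level was 1024, 855.6 and 735.1 CPM (871.6 ± 145), and in YFP- cardiac mesoderm 860.4, 921.2 and 671.4 CPM (817.6 ± 130). Hematopoietic mesoderm held 957.9, 766.7 and 941.6 CPM (888.7 ± 106), and endoderm 402, 390.6 and 387.2 CPM (393.2 ± 7.75). All 3 endoderm libraries lay below all 9 mesoderm libraries, as for 2.51% of the genes tested. The 3 mesoderm types overlapped one another.

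The Tead1 level in YFP+ cardiac mesoderm was 2.22 times that in endoderm, a log2 fold change of 1.15 ± 0.15 (SE, 95% interval 0.82 to 1.48, adjusted p = 0.00171 by edgeR's quasi-likelihood test with Benjamini-Hochberg adjustment). In YFP- cardiac mesoderm it was higher than in endoderm by 1.06 ± 0.15 on the log2 scale (adjusted p = 0.00326, same test). In endoderm it was lower than in hematopoietic mesoderm, with a log2 fold change of -1.18 ± 0.15 (adjusted p = 0.00112, same test). These comparisons share the endoderm libraries and are not independent of one another. Across the 20 alternative analyses the differences ranged from 1.02 to 1.26, from 0.96 to 1.16 and from -1.27 to -1.09, and all of them passed the threshold. Between mesoderm types no difference in Tead1 passed: YFP+ minus YFP- was 0.09 (95% interval -0.23 to 0.41), YFP+ minus hematopoietic -0.03 (-0.35 to 0.29), and YFP- minus hematopoietic -0.12 (-0.44 to 0.20). Of the 14170 genes tested, 66 (0.466%) were lower in endoderm than in each mesoderm type at the threshold, and Tead1 was among them. The marker sums above move with this contrast, and their part in it was not tested. Within the 3 endoderm libraries visceral endoderm marker RNA ranged from 1467 to 4419 CPM and Tead1 from 387.2 to 402 CPM. This is a description of 3 libraries, and a relation between the marker RNA and Tead1 was not tested. Without replicate 3 of each mesoderm type the differences were 1.24, 1.16 and -1.11.

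**Figure D1:**
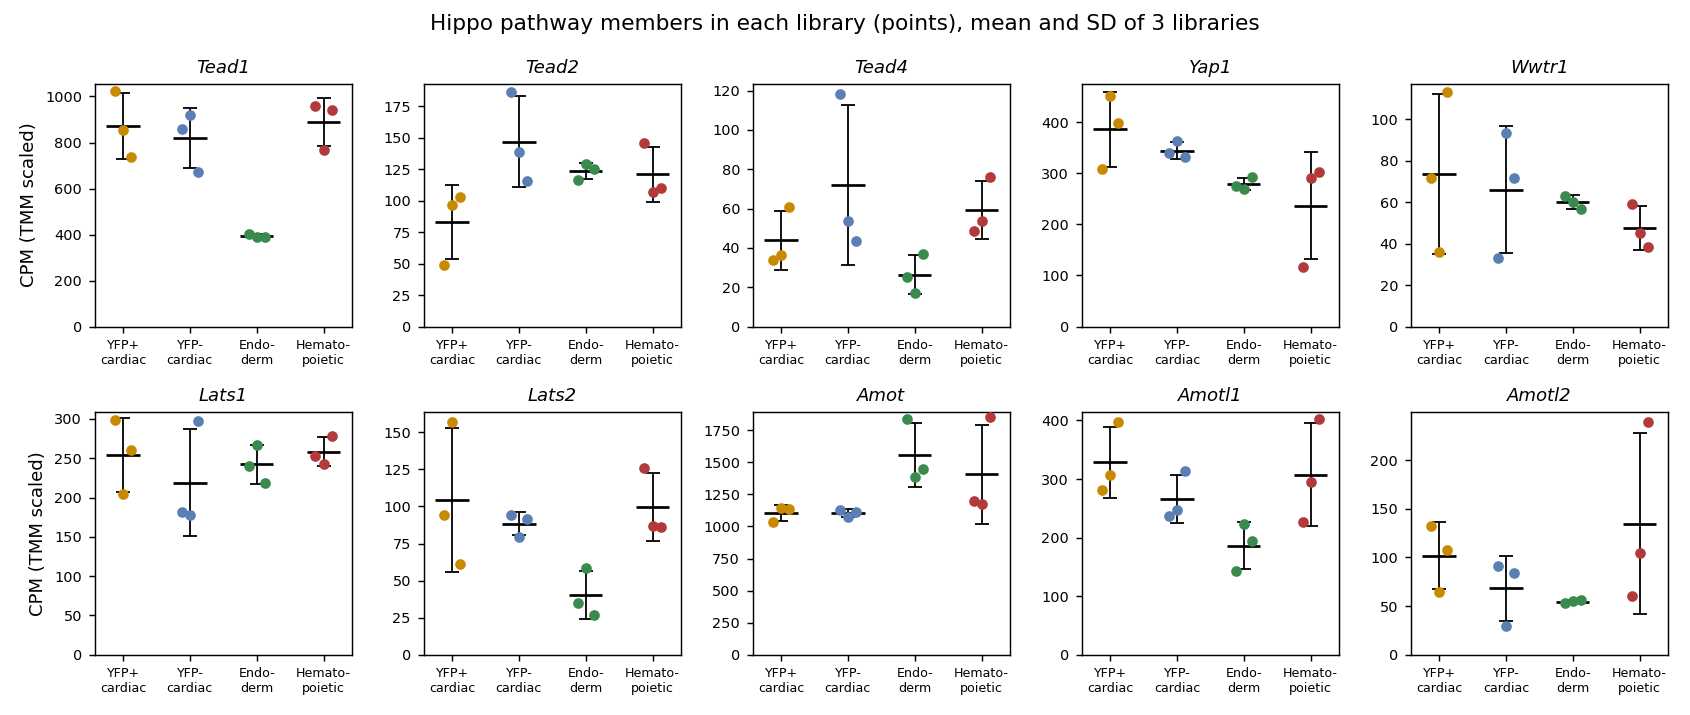
Levels of the 10 genes as TMM-scaled CPM (linear axis from 0, 1 panel per gene) in the 4 sorted types, with points for libraries, a line for the mean and error bars for the SD. Tead1 lies between 387.2 and 402 CPM in endoderm and between 671.4 and 1024 CPM in the mesoderm libraries, while Tead2 is lowest in the 3 YFP+ cardiac libraries.

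Tead2, a TEAD factor known from early embryonic tissue, did not pass the test in any pair. Its libraries did not overlap between the cardiac fractions, as was the case for 12.1% of all genes tested. It lies at chr7:45215753-45233644 on the plus strand. Its level in YFP+ cardiac mesoderm was 48.95, 96.81 and 102.7 CPM (82.8 ± 29.5), against 186, 138.5 and 115.2 CPM in the YFP- fraction (147 ± 36.1). Endoderm held 116.2, 129.3 and 125.2 CPM and hematopoietic mesoderm 146, 106.8 and 109.9 CPM. The 3 YFP+ libraries were thus the lowest of all 12, a pattern shown by 133 of the 14170 genes (0.939%). The log2 fold change between fractions was -0.82 ± 0.32 (SE, 95% interval -1.51 to -0.14), with an adjusted p of 0.626 and an unadjusted p of 0.0224 in edgeR's quasi-likelihood model. Of the 14170 genes, 1062 had an unadjusted p under 0.05 in this pair.

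Tead4, the TEAD factor needed for trophectoderm, lies at chr6:128224288-128300823 on the minus strand and was the least abundant of the 3 per length. Its levels were 34.02, 36.51 and 60.86 CPM in YFP+ cardiac mesoderm and 118.4, 53.9 and 43.74 CPM in YFP- cardiac mesoderm. Endoderm held 25.04, 17.16 and 36.95 CPM, and hematopoietic mesoderm 48.5, 53.5 and 76.18 CPM. The endoderm mean was the lowest, but the highest endoderm library exceeded the lowest 2 of the YFP+ fraction. The difference of YFP- cardiac mesoderm from endoderm was 1.45 ± 0.53 on the log2 scale, with an adjusted p of 0.283 by edgeR's quasi-likelihood test and of 0.0361 with limma voom. This difference did not pass with DESeq2. The endoderm level differed from that of hematopoietic mesoderm by -1.17, with an adjusted p of 0.209 in edgeR.

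Levels of different genes were set side by side only as CPM per kilobase of exon. On that scale Tead1 held the largest share of the summed Tead1, Tead2, Tead3 and Tead4 level in every type. Its share was 45.4% ± 2.24 in endoderm, 67.1% ± 10.8 in YFP+ cardiac mesoderm, 54.5% ± 6.93 in the YFP- fraction and 60.6% ± 0.765 in hematopoietic mesoderm. Tead2 held 40.4% ± 2.31, 18.1% ± 6.52, 27.3% ± 1.51 and 23.4% ± 3.09 in the same order. In endoderm, therefore, Tead2 came closest to Tead1, at 25.8 against 29.0 CPM per kilobase. The summed TEAD level was 63.9 ± 2.18 CPM per kilobase in endoderm, against 95.7 ± 2.90, 112 ± 23.9 and 108 ± 11.6 in the YFP+, YFP- and hematopoietic types. These shares sum to a fixed total, so a lower Tead1 share raises the others, and they are given as a description.

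**Figure D2:**
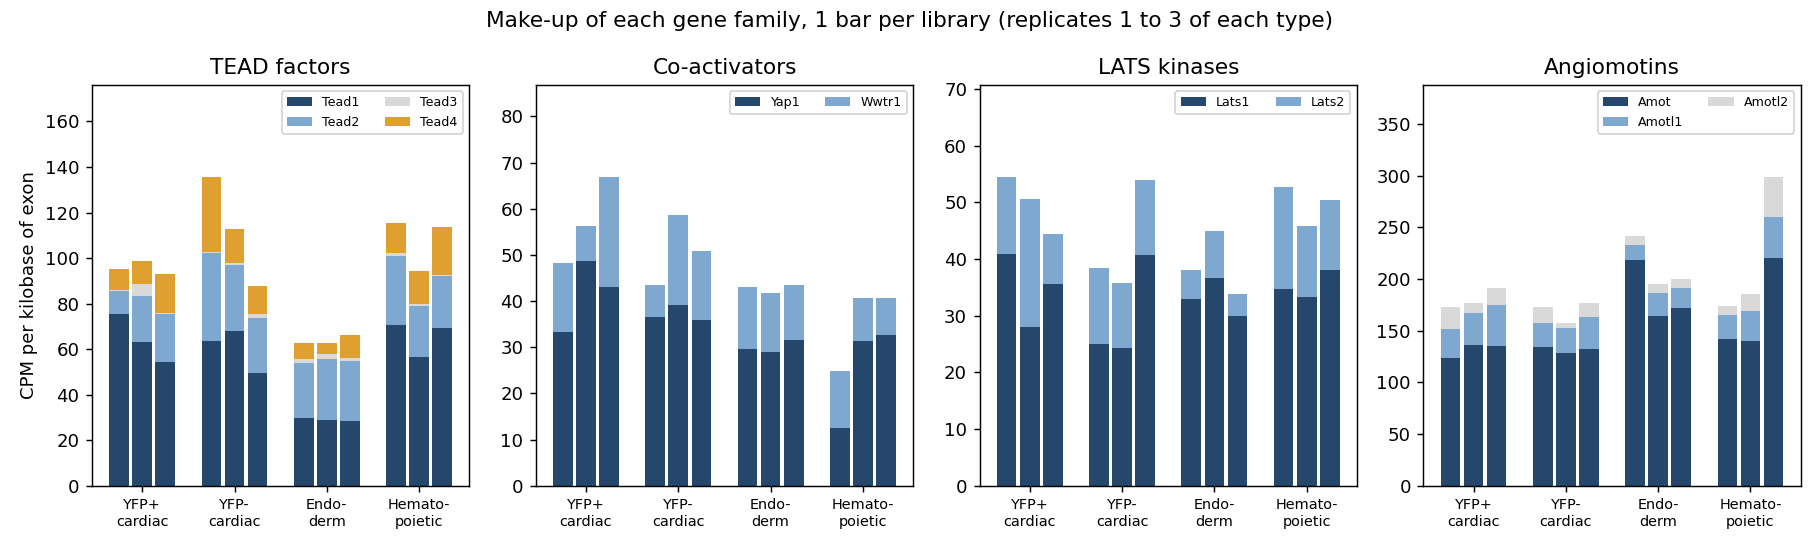
Level of each family in CPM per kilobase of exon, as 1 stacked bar per library grouped by sorted type, with a colour per gene. Tead1 takes 45.4% of the TEAD level in endoderm and 54.5% to 67.1% in the mesoderm types.

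The co-activators were present in all 12 libraries, with Yap1 above Wwtr1 per length in every type. Yap1 lies at chr9:7931999-8004596 and Wwtr1 at chr3:57455649-57575910, both on the minus strand. Yap1 was measured at 307.4, 450.6 and 398.7 CPM in YFP+ cardiac mesoderm (386 ± 72.5) and at 338.8, 362.4 and 331.6 CPM in YFP- cardiac mesoderm (344 ± 16.1). It was 275, 269 and 292.8 CPM in endoderm (279 ± 12.4) and 116.4, 290.1 and 302.8 CPM in hematopoietic mesoderm (237 ± 104). Hematopoietic replicate 1 was the lowest of the 12 libraries by a wide margin, while its other 2 libraries were close to the endoderm. YFP+ cardiac minus hematopoietic mesoderm was 0.70 ± 0.28 on the log2 scale, with an adjusted p of 0.193 in edgeR's quasi-likelihood test. Between the cardiac fractions the Yap1 difference was 0.16 (95% interval -0.44 to 0.77). An overlap of 116 exon bases (1.25%) with Gm20416 on the opposite strand means that a small part of the Yap1 counts could depend on the strand setting, which the sources used here do not give.

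Wwtr1 was measured at 71.56, 35.96 and 113.2 CPM in YFP+ cardiac mesoderm and at 32.9, 93.42 and 71.6 CPM in YFP- cardiac mesoderm. It was 63.24, 60.26 and 56.61 CPM in endoderm and 59.06, 45.05 and 38.3 CPM in hematopoietic mesoderm. The libraries of all 4 types overlapped, and no pair passed the test. Yap1 made up 73.3%, 73.8%, 70.6% and 69.2% of the summed co-activator level per length in YFP+ cardiac, YFP- cardiac, endoderm and hematopoietic libraries. In the same order that sum was 57.0 ± 9.32, 51.0 ± 7.60, 42.7 ± 0.927 and 35.5 ± 9.13 CPM per kilobase, which is given as a description.

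The LATS kinases, which phosphorylate both co-activators, differed from each other in pattern. Lats1 (chr10:7681214-7716460, plus strand) was nearly level, at 298.3, 204.9 and 260.4 CPM in YFP+ cardiac mesoderm and 182.2, 177.9 and 297.4 CPM in YFP- cardiac mesoderm. Endoderm held 240.6, 267.3 and 218.6 CPM and hematopoietic mesoderm 253.3, 242.7 and 278.3 CPM. The type means ran from 219 to 258 CPM, within the spread of the YFP- libraries. Lats2 (chr14:57689662-57758388, minus strand) is itself a known target of YAP and TEAD. It was measured at 94.37, 157.1 and 61.41 CPM in YFP+ cardiac mesoderm, at 94.02, 79.45 and 91.52 CPM in YFP- cardiac mesoderm, and at 125.8, 87.16 and 86.02 CPM in hematopoietic mesoderm. In endoderm it was 35.03, 58.45 and 27 CPM (40.2 ± 16.3), below all 9 mesoderm libraries, as for 2.51% of the genes tested. The gap was narrow at the nearest values of 58.45 and 61.41 CPM.

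The Lats2 difference did not pass the test. YFP+ cardiac mesoderm minus endoderm was 1.38 ± 0.42 on the log2 scale (95% interval 0.47 to 2.28, edgeR quasi-likelihood adjusted p = 0.115). With DESeq2 the adjusted p was 0.0201 and with limma voom 0.0446, and both methods called a larger share of all genes in this pair than edgeR did. YFP- cardiac mesoderm minus endoderm was 1.14 ± 0.42 (edgeR adjusted p = 0.279, limma voom 0.0202), and this difference did not pass with DESeq2. The difference of endoderm from hematopoietic mesoderm was -1.31 ± 0.42 (edgeR adjusted p = 0.0796, DESeq2 0.0187), and it did not pass with limma voom. Lats1 took 85.6% ± 3.74 of the summed LATS level per length in endoderm and 69.6% to 71.3% in the mesoderm types. Over the 12 libraries the log2 levels of Lats2 and Tead1 had a Pearson r of 0.825, the highest among the pairs of the 10 genes. This is a description, since the libraries fall into 4 types.

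Amot was the most abundant of the 10 genes per length, at 131, 131, 185 and 167 CPM per kilobase in YFP+ cardiac, YFP- cardiac, endoderm and hematopoietic libraries. It ranked 40 of 14029 genes with an exon length, while Tead1 ranked 703, Yap1 1625 and Lats1 1651. These ranks rest on uniquely mapped reads, so genes with near-identical copies may rank too low. The exon lengths come from an annotation that may differ from the one used for counting. Amot lies at chrX:145446425-145505181 on the minus strand. Its level was 1037, 1144 and 1134 CPM in YFP+ cardiac mesoderm (1105 ± 59.0) and 1129, 1075 and 1110 CPM in YFP- cardiac mesoderm (1105 ± 27.4). It was 1838, 1383 and 1447 CPM in endoderm (1556 ± 247) and 1195, 1175 and 1851 CPM in hematopoietic mesoderm (1407 ± 385). All 6 cardiac libraries lay below the other 6, as they did for 76 of the 14170 genes (0.536%), and the gap to the lowest hematopoietic libraries was narrow.

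The Amot difference between fractions was 0.00 (95% interval -0.34 to 0.35 on the log2 scale). YFP+ cardiac mesoderm minus endoderm was -0.49 ± 0.16, with an adjusted p of 0.138 in edgeR's quasi-likelihood test, and YFP- cardiac mesoderm minus endoderm was also -0.49, with an adjusted p of 0.189. Without hematopoietic replicate 3, which stands apart in its markers and holds the highest Amot value of all, the adjusted p values were 0.0256 and 0.0268. That library belongs to neither side of these comparisons and enters through the dispersion that all types share. Against hematopoietic mesoderm both fractions differed by -0.35, with adjusted p values of 0.252 and 0.282.

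Amotl1 (chr9:14541966-14645056, minus strand) was lowest in endoderm, where Amot was highest. It was measured at 282.1, 306.8 and 397.1 CPM in YFP+ cardiac mesoderm, 237, 247.2 and 313.1 CPM in YFP- cardiac mesoderm, and 226.2, 295 and 401.6 CPM in hematopoietic mesoderm. In endoderm it was 142.3, 222.4 and 193.9 CPM, again below all 9 mesoderm libraries, though only narrowly at the nearest values of 222.4 and 226.2 CPM. YFP+ cardiac mesoderm minus endoderm was 0.82 ± 0.24 on the log2 scale, with an adjusted p of 0.107 by edgeR's quasi-likelihood test and of 0.0299 with limma voom. This difference did not pass with DESeq2. Against hematopoietic mesoderm the endoderm difference was -0.72, with an adjusted p of 0.0901 in edgeR. Tead1, Lats2 and Amotl1 were the 3 members whose endoderm libraries all lay below the other 9, as did those of 356 of the 14170 genes (2.51%).

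Amotl2 (chr9:102716672-102733418, plus strand), a known YAP/TEAD target whose product binds YAP, varied widely among replicates of the mesoderm types. It was 132.7, 64.84 and 107.5 CPM in YFP+ cardiac mesoderm, 91.35, 29.32 and 83.58 CPM in YFP- cardiac mesoderm, and 52.94, 54.97 and 56.02 CPM in endoderm. Hematopoietic mesoderm held 60.26, 104.6 and 239 CPM, a range wider than that between any type means. The endoderm to hematopoietic difference was -1.30 ± 0.53 on the log2 scale (edgeR quasi-likelihood adjusted p = 0.159). Of the summed angiomotin level per length, Amot took 86.9% ± 3.33 in endoderm and 73.0% to 78.1% in the mesoderm types.

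**Figure D3:**
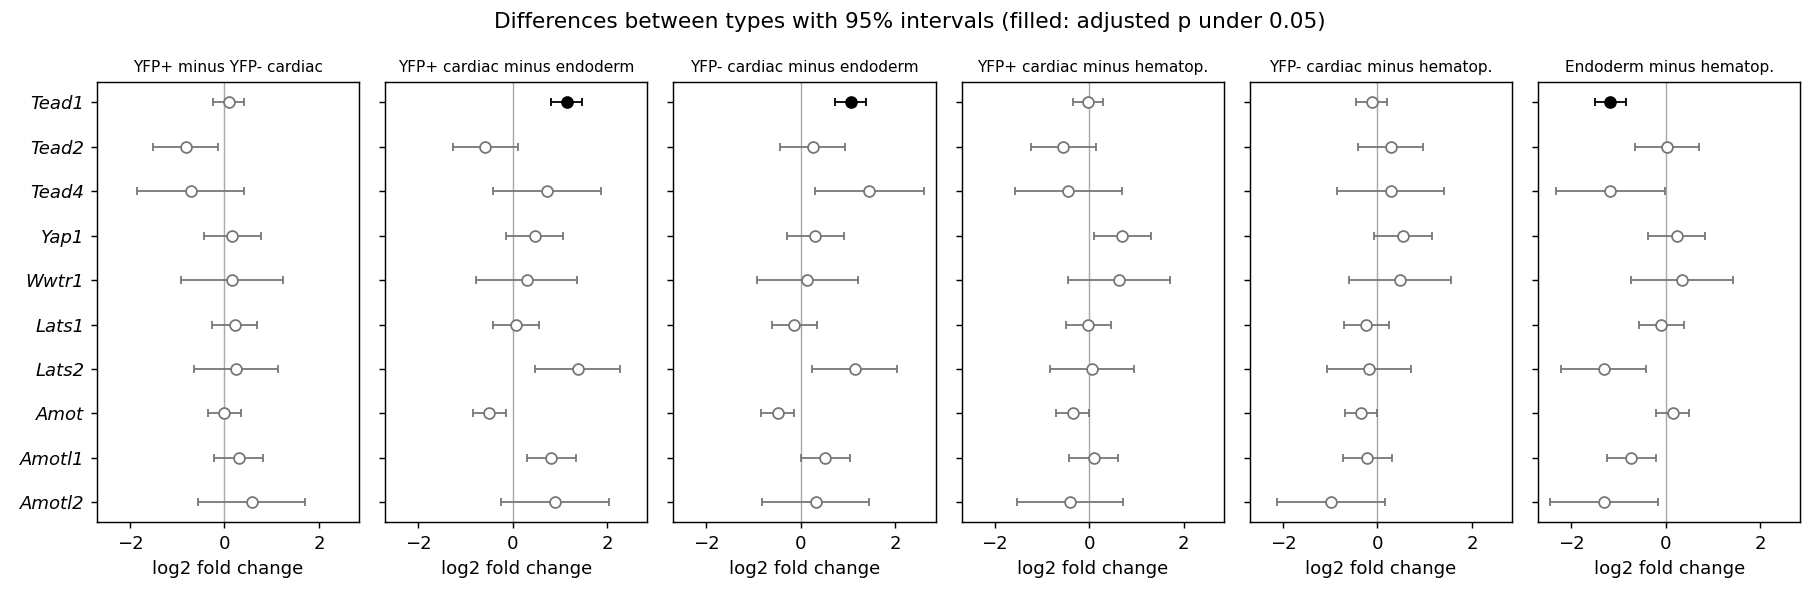
Log2 fold changes of the 10 genes in each of the 6 pairs of types, with 95% intervals and with differences at an adjusted p under 0.05 marked. Only Tead1 is marked, in the 3 pairs with endoderm, and its intervals between mesoderm types all span 0.

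Counted by pair, 0 of the 10 genes passed between YFP+ and YFP- cardiac mesoderm, where 0% of all genes tested passed in edgeR. At an unadjusted p under 0.05 there was 1 member, Tead2, against 7.49% of all genes. DESeq2 called 229 genes in this pair and limma voom 0, and no member was called by either. Only Tead2 had non-overlapping libraries, against 12.1% of all genes. The members' median log2 difference was 0.16, beside 0.03 over all genes tested.

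Between YFP+ cardiac mesoderm and endoderm 1 of 10 members passed, higher in the mesoderm, against 1.54% of all genes. Libraries did not overlap for 7 members, 5 higher and 2 lower, against 30.3% of all genes. The median difference was 0.60, beside 0.01 over all genes. Between YFP- cardiac mesoderm and endoderm 1 member passed, against 1.31%, and 6 members did not overlap, against 29.4%. There the median was 0.31, beside 0.01. Between endoderm and hematopoietic mesoderm 1 member passed, lower in endoderm, against 5.65%, and 5 members did not overlap, all lower in endoderm, against 34.3%. The median was -0.41, beside 0.07. In each of the 3 pairs Tead1 was the member that passed. The members were chosen with earlier results of these data known, so the shares of all genes are given only as a description.

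Between YFP+ cardiac and hematopoietic mesoderm no member passed, against 1.79% of all genes, and 3 members did not overlap, against 14%. At an unadjusted p under 0.05 there were 2 members, and DESeq2 and limma voom called 0 members. Between YFP- cardiac and hematopoietic mesoderm no member passed, against 0.593%, and 2 members did not overlap, against 18.6%. At an unadjusted p under 0.05 there was 1 member, and again 0 members were called by DESeq2 or limma voom.

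Upstream of LATS, a list of 20 genes of the kinase cascade and its activators and inhibitors was tested in full, and 2 of them, Frmd6 and Mob1b, passed in at least 1 pair. Frmd6, a FERM-domain protein that acts upstream of the cascade, had the largest difference of any pathway gene that passed in more than 1 pair. It was 14.11, 9.161 and 11.37 CPM in endoderm (11.6 ± 2.48) and 322.2, 148.6 and 311.4 CPM in hematopoietic mesoderm (261 ± 97.3). In YFP+ cardiac mesoderm it was 64.92, 107.7 and 68.42 CPM (80.4 ± 23.8), and in YFP- cardiac mesoderm 163, 154.7 and 101.3 CPM (140 ± 33.5). The endoderm libraries lay far below every mesoderm library, and the YFP+ and YFP- libraries overlapped.

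Endoderm minus hematopoietic mesoderm was -4.50 ± 0.40 for Frmd6 (adjusted p = 7.38e-05 by edgeR's quasi-likelihood test). YFP+ cardiac mesoderm minus endoderm was 2.80 ± 0.38 (adjusted p = 0.00196) and YFP- cardiac mesoderm minus endoderm 3.60 ± 0.39 (adjusted p = 0.000366). All 3 differences passed in all 20 alternatives. YFP+ cardiac minus hematopoietic mesoderm was -1.70 ± 0.36 (adjusted p = 0.0384) and passed in 6 of 20, being lost without any 1 library other than YFP+ replicate 2 or hematopoietic replicate 2, and with a block for replicate number (adjusted p = 0.0735). Mob1b, an adaptor that activates LATS, was 702.5, 310.3 and 422.3 CPM in hematopoietic mesoderm (478 ± 202), against 222 ± 49.3 in YFP+ cardiac mesoderm, 199 ± 44.6 in YFP- cardiac mesoderm and 205 ± 43.4 in endoderm. For Mob1b the difference of endoderm from hematopoietic mesoderm was -1.22 (edgeR adjusted p = 0.0357) and passed in 12 of 20 alternatives. It was lost without any 1 endoderm library, hematopoietic replicate 1, or YFP- replicate 2 or 3, with adjusted p values up to 0.152. In the order YFP+ minus endoderm, YFP- minus endoderm, YFP+ minus hematopoietic and endoderm minus hematopoietic, the list of 20 had 1 higher, 1 higher, 1 lower and 2 lower, against 1.54%, 1.31%, 1.79% and 5.65% of all genes called. It had none in the remaining pairs. The list's median difference between endoderm and hematopoietic mesoderm was -0.38, beside 0.07 over all genes.

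**Figure D4:**
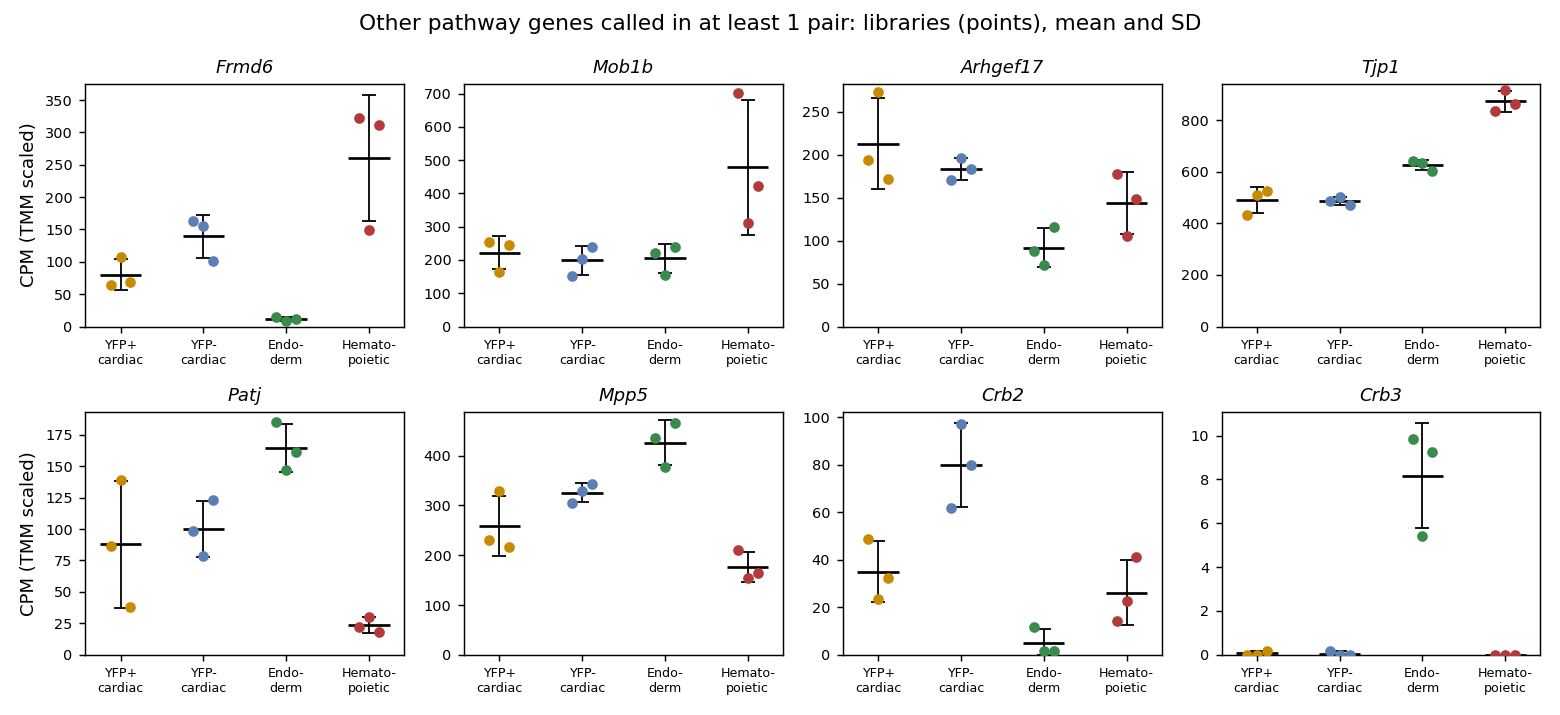
Levels of the 8 other pathway genes that passed the test in at least 1 pair, as TMM-scaled CPM (linear axis from 0) in the 4 sorted types, with points for libraries, a line for the mean and error bars for the SD. Frmd6 lies between 9.161 and 14.11 CPM in endoderm and above 64 CPM in every mesoderm library.

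Of 22 genes of cell junctions and polarity complexes that feed into the pathway, all tested, 5 passed in at least 1 pair. In the pairs YFP- minus endoderm, YFP+ minus hematopoietic, YFP- minus hematopoietic and endoderm minus hematopoietic there were 1 higher and 0 lower, 1 and 1, 0 and 1, and 3 and 1, out of 22 genes. Of all genes 1.31%, 1.79%, 0.593% and 5.65% were called in these pairs. The list's median in the last pair was -0.05, beside 0.07 over all genes. Tjp1, which encodes the tight junction scaffold ZO-1, was highest in hematopoietic mesoderm at 874 ± 40.8 CPM. It was 491 ± 50.1 in YFP+ cardiac mesoderm, 486 ± 15.3 in YFP- cardiac mesoderm and 627 ± 19.7 in endoderm. YFP+ cardiac minus hematopoietic mesoderm was -0.83 ± 0.11 (adjusted p = 0.00410 in edgeR's quasi-likelihood test), YFP- cardiac minus hematopoietic -0.85 (adjusted p = 0.00510), and endoderm minus hematopoietic -0.48 (adjusted p = 0.0271). The last passed in 13 of 20 alternatives and the others in 19 of 20. It was lost without any 1 endoderm library (adjusted p up to 0.148), and without YFP- replicate 1 or 3. Tjp1 was among 13 genes (0.0917%) higher in hematopoietic mesoderm than in each other type.

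Of the Crumbs polarity genes, Patj, Mpp5 and Crb3 were higher in endoderm than in hematopoietic mesoderm, while Crb2 was not called in that pair. Patj, a scaffold of this complex, was 165 ± 19.0 CPM in endoderm and 23.4 ± 6.33 CPM in hematopoietic mesoderm, with 88.0 ± 50.5 in YFP+ and 100 ± 22.3 in YFP- cardiac mesoderm. Endoderm minus hematopoietic mesoderm was 2.81 (edgeR adjusted p = 0.00460), which passed in 20 of 20 alternatives, and YFP+ cardiac minus hematopoietic was 1.91 (adjusted p = 0.0481), which passed in 7 of 20 and was lost without any 1 library other than YFP+ replicate 3 or hematopoietic replicate 2, and with a block for replicate number (0.0865). Mpp5 (Pals1), its partner scaffold, was 426 ± 45.6 CPM in endoderm, 259 ± 61.0 and 326 ± 19.2 CPM in YFP+ and YFP- cardiac mesoderm, and 177 ± 29.8 CPM in hematopoietic mesoderm. Its difference between endoderm and hematopoietic mesoderm was 1.27 (adjusted p = 0.00283) and passed in 20 of 20 alternatives. Crb3, the Crumbs protein of epithelia, was 9.827, 5.419 and 9.238 CPM in endoderm and had 0 counts in all 3 hematopoietic libraries. Against a floor of 3 counts per library, the endoderm level was at least 13.1-fold higher (edgeR adjusted p = 0.0378). This passed in 6 of 19 alternatives and was lost without any 1 endoderm, hematopoietic or YFP- library, or YFP+ replicate 3 (adjusted p up to 0.128), and with a block for replicate number (0.0721). Crb2, the Crumbs protein of the early mesoderm and nervous system, ran the other way against endoderm, at 79.7 ± 17.7 CPM in YFP- cardiac mesoderm and 5.03 ± 5.94 CPM in endoderm (log2 fold change 3.99, adjusted p = 0.0441). The endoderm mean rested on replicate 1, at 11.9 CPM against 1.55 and 1.66 CPM, and without that library the log2 fold change was 5.60. The call passed in 10 of 20 alternatives and was lost without any 1 cardiac library or endoderm replicate 2 or 3 (adjusted p up to 0.206), and with a block for replicate number (0.0704). Between endoderm and hematopoietic mesoderm, the Crb2 difference was -2.38 on the log2 scale (26.1 ± 13.7 CPM in hematopoietic mesoderm), the direction of Tjp1, with an adjusted p of 0.0994 in edgeR. The endoderm and epiblast marker sums given above move with these contrasts, and their part in them was not tested.

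Of the 5 further TEAD partners, Tead3 and the Vestigial-like cofactors Vgll1 to Vgll4, 3 were expressed enough to test and none passed in any pair. Vgll4, which competes with YAP for TEAD binding, was 115.3, 33.24 and 6.086 CPM in YFP+ cardiac mesoderm, a spread that makes its mean uninformative. In the other types it was 9.0 ± 1.51, 4.35 ± 4.01 and 27.1 ± 14.3 CPM in YFP- cardiac mesoderm, endoderm and hematopoietic mesoderm. Tead3 was low throughout, with a mean of 13.2 ± 19.3 CPM in YFP+ cardiac mesoderm that rested on 1 library at 35.42 CPM, and of 6.70, 11.8 and 4.29 CPM elsewhere.

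Of the known YAP/TEAD target genes, 1 passed the test, in 1 pair. The list held 22 genes, of which 20 were tested, and Lats2, Amotl2 and Ptpn14 also stand in the groups above. Arhgef17, a RhoGEF, was the only one to pass, between YFP+ cardiac mesoderm and endoderm (1 of 20, against 1.54% of all genes), with 213 ± 53.0 CPM in YFP+ cardiac mesoderm against 91.8 ± 22.6 CPM in endoderm. Its log2 difference was 1.21 (edgeR quasi-likelihood adjusted p = 0.0475) and passed in 8 of 20 alternatives, being lost without any 1 cardiac or endoderm library (adjusted p up to 0.248) and with a block for replicate number (0.0870). In that pair 9 of the 20 were higher and 11 lower in the mesoderm, whether or not they passed, and the list's median was -0.14, beside 0.01 over all genes. Between endoderm and hematopoietic mesoderm 14 were higher and 6 lower in endoderm, with a median of 0.94 beside 0.07 over all genes. Hematopoietic means of the 14 ran from 0.0575 (F3) to 137.1 CPM (Ptpn14), and several, such as Axl (0.288) and Nt5e (0.518), were near the floor. The 6 lower genes were Ccn1, Lats2, Amotl2, Asap1, Arhgef17 and Fjx1, with hematopoietic means of 42.4 (Fjx1) to 236.4 CPM (Asap1). The median therefore leans on genes with few counts. None passed the threshold in edgeR in that pair, and 6 of 20 had an unadjusted p under 0.05, against 22.8% of all genes. Between YFP+ cardiac and hematopoietic mesoderm 15 were higher and 5 lower in the cardiac type, with a median of 0.51 beside 0.03, and between the YFP- fraction and hematopoietic mesoderm 12 were higher and 8 lower. These pairs share the hematopoietic libraries and therefore the same low values. The 2 remaining pairs each had 10 higher and 10 lower. Ccn1 and Ccn2, secreted matrix proteins often used as readouts of YAP activity, are given here because of that use and were picked after their values were seen. Ccn1 was 113.1, 137.7 and 200.9 CPM in hematopoietic mesoderm, above every other library, and ran from 0.9221 to 95.41 CPM among the YFP+ cardiac libraries alone. Ccn2 averaged 10.9, 13.9, 13.6 and 6.53 CPM in YFP+ cardiac, YFP- cardiac, endoderm and hematopoietic libraries. Of its exon bases 665 (23.2%) overlap Gm15270 on the opposite strand, so its counts could depend on the strand setting, which is not given. Neither passed in any pair.

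**Figure D5:**
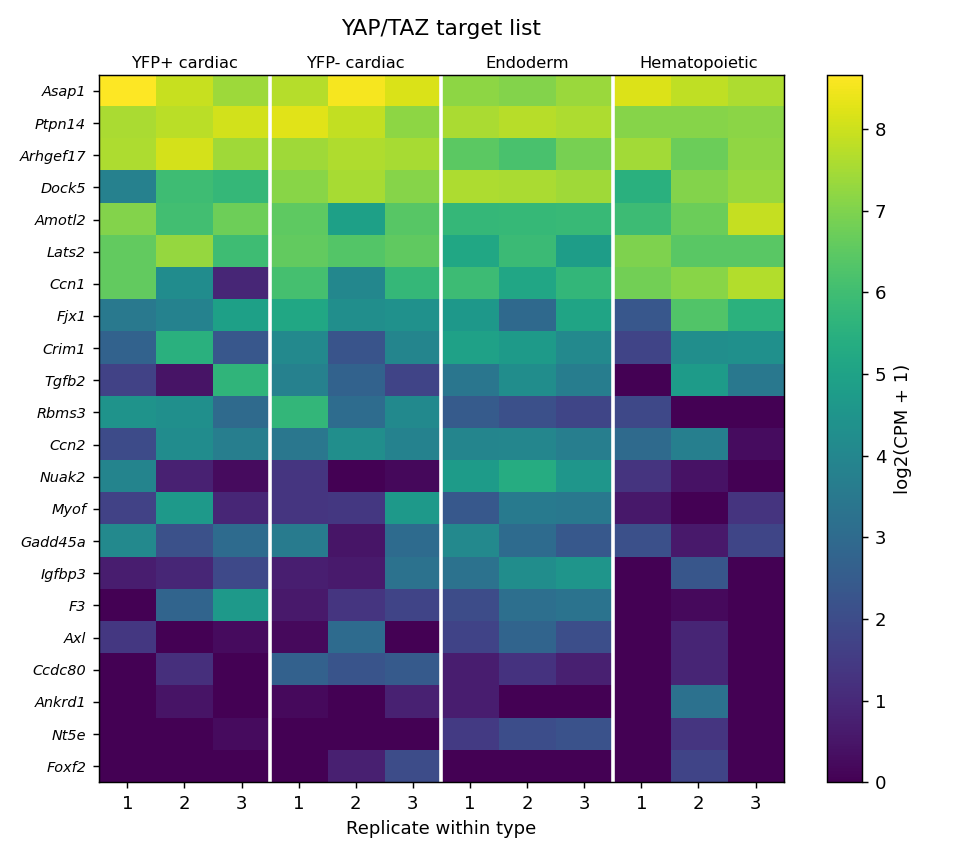
Heat map of the 22 target genes (rows, by mean level) in the 12 libraries (columns, by type and replicate), with colour for log2(CPM + 1). Ccn1 is brightest in the 3 hematopoietic libraries, from 113.1 to 200.9 CPM, and lies between 0.9221 and 95.41 CPM in YFP+ cardiac mesoderm.

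The genes whose log2 level followed Tead1 most closely over the 12 libraries were Ppic, a cyclophilin, with a Pearson r of 0.968, Rbms1, an RNA-binding protein, with 0.950, and Fn1, which encodes fibronectin, with 0.949. The endoderm means were 40.8, 188.8 and 666.7 CPM, against 229.3, 543.6 and 2319 CPM in hematopoietic mesoderm. All 3 were among the 66 genes lower in endoderm than in each mesoderm type. The libraries share their types, with endoderm apart from mesoderm for each of these genes, and the correlations are given as a description. Among the 10 genes the lowest correlations were -0.563 between Tead2 and Lats1 and -0.541 between Lats2 and Amot.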

How the data were processed

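RNA of 12 libraries was purified and amplified with kits for very small samples, per the labels' protocols. The deposited values were raw, whole-number counts of reads per gene with no normalization. The submitters' processing notes name STAR 2.5.0a, Picard, HTSeq 0.6.0, DESeq2 and mm10, with no role or order; annotation release and strand setting are not given in the sources used here. The files held 38924 genes, of which 37607 had a symbol, and 5 summary rows that were left out. Between 18.3% and 21.5% of each library's reads were counted in genes, 34.5% to 43.6% in no gene and 35.1% to 44.8% as not unique, so genes with near-identical copies are undercounted.

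Counts were fitted with edgeR 4.0.16 in R 4.3.3 after TMM scaling. Its default filter on low counts left 14170 genes. All 12 libraries entered 1 quasi-likelihood model with 1 coefficient per type (8 residual degrees of freedom). The 6 pairs were tested two-sided with Benjamini-Hochberg adjustment over all genes, at 0.05. Alternatives were RLE scaling, no filter on low counts, a filter at a mean of 5 CPM, a block for replicate number, DESeq2 1.42.0, limma 3.58.1 voom with quality weights, only the 2 types compared, leaving out each library, and, chosen after seeing the data, leaving out replicate 3 of each mesoderm type. The edgeR procedure was tested on simulated data. Within types, libraries differed by more than sampling noise, so none was counted as a duplicate.

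The 10 genes and the pathway lists were chosen with earlier results of these data known. Named genes were the 10 members, list genes that passed in any pair, otherwise the 2 most abundant of a list, and the 3 genes most correlated with a member that passed, on log2(CPM + 1). Ccn1 and Ccn2 were added after their values were seen. Exon lengths and coordinates came from a GRCm38 annotation. The floor of 3 counts covers counting error only, because amplified reads that carry no molecular identifier can be copies of 1 molecule.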

Additional observations from a re-analysis of the deposited data

How the results depend on the processing

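Tead1 kept its direction and passed the threshold in all 3 endoderm pairs under all 20 alternatives, and it was not called between mesoderm types. With 3 libraries per type and between 4472800 and 7888631 gene counts, the 95% interval of the Wwtr1 difference between cardiac fractions ran from -0.92 to 1.23, so smaller differences of such a gene could not be resolved. The count of members that passed changed in these pairs. Between YFP+ cardiac mesoderm and endoderm it was 2 with DESeq2 (Lats2 added), 3 with limma voom (Lats2 and Amotl1 added) and 3 with only the 2 types fitted (Amot and Amotl1 added), and leaving out 1 library gave 1 to 2. Between YFP- cardiac mesoderm and endoderm it was 4 with limma voom (Tead4, Lats2 and Amot added) and 2 with only the 2 types (Amot added), and leaving out 1 library gave 1 to 2. In both pairs the 2 came from leaving out hematopoietic replicate 3, which added Amot. Between endoderm and hematopoietic mesoderm it was 2 with DESeq2 (Lats2 added). The share of all genes that passed between YFP+ cardiac mesoderm and endoderm rose from 1.54% to 7.88% with DESeq2 and 7.97% with limma voom. With DESeq2 the share rose from 1.31% to 4.94% between YFP- cardiac mesoderm and endoderm. Between endoderm and hematopoietic mesoderm it rose from 5.65% to 15.1% with DESeq2. Higher counts of members under another method can therefore go with more calls over all genes, and they are given as a description. The cause of these rises was not tested.

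Differences between the cardiac fractions that changed sign were never called. Amot was -0.0038 with RLE scaling, -0.0063 with DESeq2, -0.0022 with only the 2 types and -0.013 without replicate 3 of each mesoderm type. Wwtr1 was -0.23 without those libraries. Leaving out 1 library gave lowest values of -0.051 for Tead1, -0.18 for Lats2, -0.30 for Wwtr1 and -0.0256 for Amot, and highest values of 0.20, 0.51, 0.49 and 0.0442.

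The deposited names carry 3 dates that go with the replicate numbers in every type, and nothing says what the dates mark. The 18 correlations between same-numbered libraries, as deviations from type means, ran from -0.0151 to 0.0371 (median 0.0185), with 0 above 0.1. In 12 of 18 the library correlated best with its own number, more often than an even spread over the 3 numbers would give. The correlations were thus weak but leaned towards the own number, and whether the libraries are paired was not settled. With the replicate block the members called stayed at 1 in each endoderm pair and 0 in the others, and Tead1 was 1.14, 1.05 and -1.18. Over all genes the block lowered the calls from 253 to 133 between YFP+ cardiac and hematopoietic mesoderm and from 84 to 31 between YFP- cardiac and hematopoietic mesoderm. Among list genes it took Arhgef17, Crb2, Crb3, and the YFP+ to hematopoietic differences of Frmd6 and Patj over the threshold (adjusted p 0.0704 to 0.0870).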
